A study of Mus musculus with 18 samples.

Results

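MII oocytes of mice labelled NTY were compared with MII oocytes of sham mice by bulk RNA sequencing, across all genes of the transcriptome. The comparison used 6 of the 18 libraries of the series, 3 labelled MII sham and 3 labelled MII NTY, and was chosen by stage and treatment label alone. Of 53715 genes in the count table, 20896 had a read in at least 1 of the 6 libraries and 12209 had enough reads to be tested.

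The labels give both groups as C57Bl/6j x CBA/J, as in vivo samples and as MII oocytes, so that the treatment label is what separates them. What NTY stands for, the age of the mice and the number of oocytes or animals behind a library are not given in the sources used here. The labelled protocol states PicoPure extraction and Smart-seq II libraries for collected oocytes, which was taken to apply to these libraries. The 3 libraries of a group are not said to come from separate animals, so the p-values below measure the spread between these libraries, which may be technical. A library held 8898672 to 9978830 counted reads in the sham group and 8652089 to 9337884 in the NTY group.

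A metaphase II oocyte is arrested at the last step before fertilisation and has shut down transcription. Its RNA is a store of maternal messages that were made during growth, and that are held back, translated or degraded under the control of RNA-binding proteins. A level in such a cell therefore reflects synthesis during growth together with decay since. The store is known for messages of the zona pellucida and of secreted growth factors, for cyclin B and Mos, which hold the arrest, and for maternal effect genes that act after fertilisation.

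Messages of low abundance were more often missing from NTY libraries than from sham libraries. Among abundant maternal messages, Zbed3, a member of the subcortical maternal complex, H1f8, the oocyte linker histone, and Gdf9, the growth factor by which the oocyte acts on its follicle, overlapped between the groups, whereas Btg4 and Obox5 were higher in every NTY library than in every sham library, by small log2 fold changes of 0.26 and 0.23. Over all genes tested 2.63% were separated in that direction and 5.72% in the other. Messages with fewer than 100 reads in a library were fewer in every NTY library than in every sham library. Cdc25b, a phosphatase that activates CDK1, and Clpb, a mitochondrial protein disaggregase, are named here because DESeq2, an alternative test, called them lower. Cdc25b had 417 reads over the sham libraries and 4 over the NTY libraries, and Clpb had 315 and 0. Both reached the minimum of reads for testing through the sham group alone and had to differ, so nothing is read from them. No gene passed the main test, so the differences named here are those of the measured libraries and not calls.

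That the cells were oocytes was checked against genes that define the oocyte, and their stage was not tested. In TPM, which divides reads by gene length and so allows genes to be compared, Zbed3 stood at 34839, 28707 and 26845 in sham replicates 1 to 3 and at 32264, 19629 and 14232 in NTY replicates 1 to 3. H1f8 stood at 22839.8, 23320.2 and 37688 TPM in sham and at 36817, 34546 and 19054 TPM in NTY. Dppa3, a maternal factor that protects the zygotic genome, stood at 5509, 10261 and 11202 TPM in sham and at 9040.3, 7923 and 3621 TPM in NTY. These oocyte genes were high in all 6 libraries and overlapped between the groups. Among the 15 genes with the highest mean TPM in sham, 5 were encoded by mitochondrial DNA (mt-Atp8, mt-Cytb, mt-Atp6, mt-Nd1 and mt-Tl1). The others were the oocyte genes Zbed3, H1f8, Tcl1, Bcl2l10, Spin1, Dppa3 and Khdc1b and the transcripts E330034G19Rik, E330021D16Rik and Gm31941.

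The libraries differed in how many genes they registered at low counts. Genes with 1 or 2 reads numbered 1324, 2086 and 1377 in sham replicates 1 to 3 and 909, 803 and 912 in NTY replicates 1 to 3. Genes with 3 to 9 reads numbered 1987, 2962 and 2311 in sham and 1272, 903 and 1159 in NTY. Genes with at least 10 and under 100 reads numbered 5546, 5973 and 5763 in sham and 4740, 4218 and 4561 in NTY. In each of these 3 classes the groups did not overlap (exact two-sided permutation p = 0.1, n = 3 per group), and 0.1 is the smallest p that 3 libraries against 3 can give. Fewer oocytes and less RNA per oocyte cannot be told apart in such bulk libraries.

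Above 100 reads the numbers of genes overlapped between the groups. Genes with at least 100 and under 1000 reads numbered 4829, 5167 and 4875 in sham and 4974, 5069 and 4489 in NTY (exact permutation p = 0.8, n = 3 per group). Genes with 1000 reads or more numbered 1756, 2051 and 1816 in sham and 1713, 1933 and 1661 in NTY (exact permutation p = 0.5, n = 3 per group). With every library thinned to the smallest total, 16511 ± 1391 genes had a read in sham and 13090.3 ± 447 in NTY (mean ± SD, n = 3 per group), again without overlap.

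**Figure D1:**
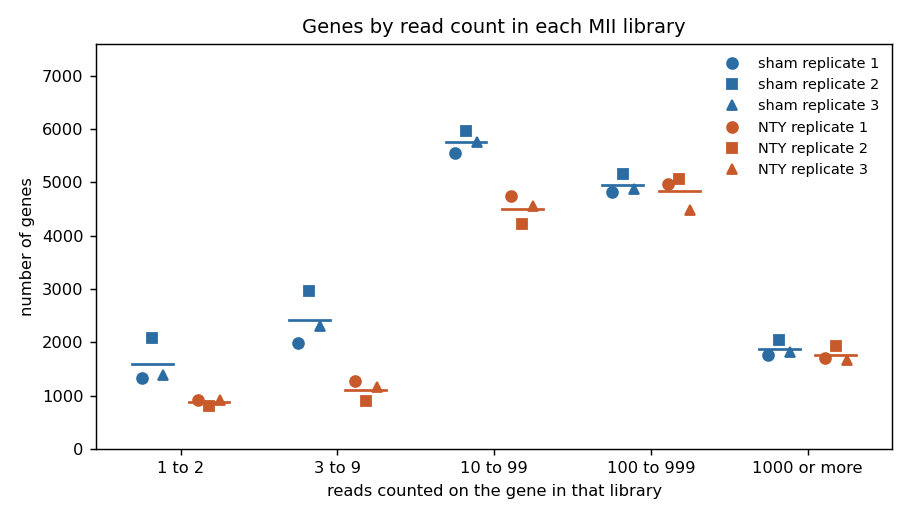
Number of genes (vertical axis) by the number of reads counted on the gene in that library (horizontal axis), for 3 sham and 3 NTY libraries, with bars at the group means. The NTY points lie below all sham points in the 3 classes under 100 reads and overlap with them in the upper 2 classes.

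Protein-coding and non-coding genes were both concerned. Protein-coding genes with at least 1 read numbered 12516 ± 882 in sham and 10344 ± 299.5 in NTY (mean ± SD, n = 3), long non-coding RNA genes 2442 ± 329 and 1641 ± 70.9, and pseudogenes 987 ± 163 and 667 ± 39.6. The sham means exceeded the NTY means 1.21-fold, 1.49-fold and 1.48-fold for these types. The share of reads that fell on protein-coding genes was nevertheless 95.0% ± 0.0931 in sham and 95.1% ± 0.253 in NTY. The 100 most counted genes of a library took 31.7% ± 3.74 of its reads in sham and 31.6% ± 2.55 in NTY.

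The same point was seen gene by gene between pairs of libraries. Of the genes with at least 10 reads in an NTY library, 8.04% to 11.97% had 0 reads in another NTY library (6 ordered pairs, median 10.6%). Of the genes with at least 10 reads in a sham library, 1.25% to 6.42% had 0 reads in another sham library (6 pairs, median 4.14%). The NTY libraries thus lacked more of each other's genes than any sham pair did. Genes counted in sham were absent from NTY libraries at 10.5% to 16.01% (9 pairs), and genes counted in NTY were absent from sham libraries at 1.35% to 5.03% (9 pairs). Pairs share libraries, so that these shares are a description.

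**Figure D2:**
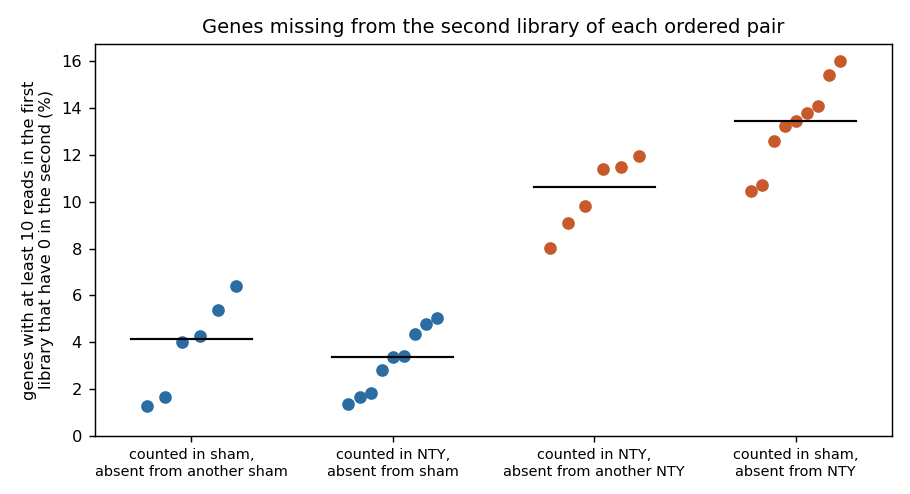
Percentage of the genes with at least 10 reads in one library that had 0 reads in a second library (vertical axis), for each ordered pair of libraries (points) with the median (line). Points are blue where the second library was sham and orange where it was NTY, and pairs with NTY as the second library run from 8.04% upwards whereas pairs with sham as the second library run up to 6.42%.

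Genes seen throughout one group and nowhere in the other were almost entirely sham genes. With at least 10 reads in each sham library and 0 in all NTY libraries there were 113 genes, 91 of them protein coding, and the reverse was found for 0 genes. With at least 30 reads there were 16 against 0, and with at least 1 read 572 against 4. The 4 genes on the NTY side, named after their values were seen, were Lrrtm1, a synaptic adhesion protein, with 5, 50 and 6 reads in NTY replicates 1 to 3, Dzip1, a basal body protein, with 2, 41 and 11, Gm4922 with 9, 1 and 3 and Pirb, an immune receptor, with 1, 1 and 1. In Lrrtm1 and Dzip1 most reads came from NTY replicate 2.

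The libraries of the NTY group were also less correlated with each other. Over genes, r of log2(CPM + 1) was 0.825 to 0.852 between NTY libraries, 0.914 to 0.952 between sham libraries and 0.862 to 0.901 between the groups, as a description across genes that are not independent replicates. A chi-square of the raw counts per degree of freedom did not separate the groups in this way, at 39.4, 92.5 and 111 between sham libraries and 73.96, 126 and 149 between NTY libraries. The common dispersion that edgeR estimated within a group was 0.235 for sham and 0.914 for NTY. Among the 5013 tested genes with a mean of 1 to 10 CPM (read counts scaled to a common library size by TMM), the median SD of log2(CPM + 1) was 0.57 in sham and 1.09 in NTY. Genes of that class can pass the filter on low counts through 1 group alone, which bears on both SDs. The correlations, chi-squares and dispersions were also computed over the tested genes, so the filter bears on them too. Of the 12209 tested genes, 24 to 294 had 0 reads in a sham library and 844 to 1255 in an NTY library. Among the 1963 genes at 100 CPM or more the median SD was 0.29 in sham and 0.42 in NTY, and no value was 0.

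The test across genes asked whether a message differed between NTY and sham beyond the spread of these libraries. By edgeR's quasi-likelihood test with Benjamini-Hochberg adjustment 0 of 12209 genes passed an adjusted p of 0.05 (0%), and the smallest adjusted p was 0.877. At an unadjusted p under 0.05 there were 228 genes lower in NTY (1.87% of those tested) and 52 higher (0.426%). Among the 8307 genes with at least 10 reads in each library, 62 were lower among 151 genes at an unadjusted p under 0.05. That minimum takes out genes with few reads in an NTY library, so it bears on this balance by itself. DESeq2 called 29 genes lower (0.238%) and 0 higher. In 698 genes (5.72%) all NTY libraries lay below all sham libraries, and in 321 (2.63%) all lay above. TMM scaling centres the fold changes, and their median was 0.00 over all genes tested. The share of negative values was 51.6% at a mean of 1 to 10 CPM, 49.1% at 10 to 100 CPM and 44.4% at 100 CPM or more.

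By level, 156 lower and 17 higher genes came from the 5013 tested at 1 to 10 CPM, 38 and 31 from the 5113 at 10 to 100 CPM, and 5 and 4 from the 1963 at 100 CPM or more. The remaining 29 lower genes were among 120 with a mean under 1 CPM, of whose values 8.61% in sham and 56.1% in NTY were 0. A gene that rare can pass the filter on low counts through the group where it is counted, so that nothing is read from them. The filter also bears on the class of 1 to 10 CPM. The 5 abundant lower genes were Stk25, a kinase of Golgi and cell polarity, Arhgap11a, a GTPase-activating protein of dividing cells, Lpcat1, an enzyme of phosphatidylcholine synthesis, Abhd16a, a phosphatidylserine lipase, and Cdc34b, a ubiquitin-conjugating enzyme. The 4 abundant higher genes were Ncl, the nucleolar protein nucleolin, Sf3a3, a splicing factor, Zc3h13, a subunit of the RNA methylation complex, and Upf1, the helicase of nonsense-mediated decay. These 9 were named after their values were seen.

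Arhgap11a stood at 223, 215 and 194 CPM in sham replicates 1 to 3 and at 115, 118 and 155 CPM in NTY replicates 1 to 3. Its NTY libraries all lay below every sham library. Its log2 fold change was -0.70 ± 0.27 (SE), with an unadjusted edgeR p of 0.0291. Stk25 stood at 161, 168 and 162 CPM in sham and at 111, 99.3 and 61.3 CPM in NTY, a log2 fold change of -0.85 ± 0.31. Upf1 stood at 107, 67.2 and 74.1 CPM in sham and at 163, 149 and 135 CPM in NTY, a log2 fold change of 0.85 ± 0.30. Zc3h13 stood at 237, 236 and 308 CPM in sham and at 301, 515 and 675 CPM in NTY, where replicate 1 was inside the sham range and replicates 2 and 3 were above it. Each of these 9 genes had an edgeR adjusted p of 0.9998 after Benjamini-Hochberg adjustment.

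The 29 genes that DESeq2 called lower were uncommon messages with few or no reads in NTY libraries. With so few NTY reads they passed the filter on low counts through the sham group alone and had to differ, so that their number, direction and p are given as a description and nothing is read from them. Their mean in sham was 4.24 to 14.4 CPM, 19 of them had 0 reads in all 3 NTY libraries, and the highest count of any of them in an NTY library was 5. Of the 29, 26 were protein coding. All 29 had an unadjusted p under 0.05 in edgeR, from 0.000367 to 0.0096, and an edgeR adjusted p of 0.877 to 0.909 after Benjamini-Hochberg adjustment.

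The DESeq2 count changed with every library. Without sham replicate 1, 2 or 3 it was 0, 1 or 2 genes of 13001, 12833 or 12948 tested. Without NTY replicate 1, 2 or 3 it was 246, 132 or 184 genes of 12358, 12063 or 12954 tested. Of these calls 228, 125 and 175 were lower in NTY and the rest higher. Clpb was the gene called without sham replicate 2, and Clpb and Cdc25b were those called without sham replicate 3. DESeq2 called 0 genes without sham replicate 1.

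Cdc25b (chromosome 2, 131186949 to 131198497, GRCm38) encodes the phosphatase that removes inhibitory phosphates from CDK1 and is needed in the mouse for oocytes to resume meiosis. It had 143, 186 and 88 reads in sham replicates 1 to 3 and 3, 0 and 1 in NTY replicates 1 to 3. Every sham library had at least 88 reads and every NTY library at most 3. The ratio of the scaled sums was 96.5-fold lower in NTY, with an exact 95% counting interval of 37.4 to 356. Its fitted log2 fold change was -6.42, and it was -7.66 without NTY replicate 1 and -3.29 on log2(TPM + 1), a scale that understates the change of low genes. Its adjusted p was 4.83e-05 in DESeq2 and 0.877 in edgeR, both with Benjamini-Hochberg adjustment. Such intervals cover counting error only, since reads made by amplification are not independent molecules.

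Clpb (chromosome 7, 101663633 to 101795506) encodes a disaggregase of the mitochondrial intermembrane space. It had 129, 75 and 111 reads in sham and 0 in all 3 NTY libraries, at least 97.2-fold lower in NTY against a floor of 3 reads over the group. Its adjusted p was 4.83e-05 in DESeq2 and 0.877 in edgeR, both with Benjamini-Hochberg adjustment. Prodh, the proline dehydrogenase of the mitochondrial inner membrane, had 31, 57 and 138 reads in sham and 0, 2 and 1 in NTY. It was 69.7-fold lower, with a counting interval of 23.6 to 341. Its fitted log2 fold change of -6.00 ran from -6.73 to -5.17 when each library was left out in turn. Slc25a30, a carrier of the same membrane, had 67, 38 and 63 reads in sham and 0 in all NTY libraries. These 3 mitochondrial proteins are encoded in the nucleus.

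The cytoskeletal and adhesion genes among the 29 showed the same form. Nhs, an actin regulator mutated in Nance-Horan syndrome, had 128, 141 and 86 reads in sham and 4, 5 and 1 in NTY, 32.9-fold lower with a counting interval of 17.7 to 69.1. Magi2, a scaffold of cell junctions, had 70, 87 and 99 reads in sham and 0, 0 and 5 in NTY, where all 5 reads came from replicate 3. Akna, a centrosomal protein that organises microtubules, had 180, 43 and 36 reads in sham and 2, 2 and 0 in NTY. Sham replicate 1 held most of the Akna reads of its group.

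Receptors and secreted proteins were also found there. Epha10, an ephrin receptor, had 70, 87 and 57 reads in sham and 0 in all NTY libraries, at least 66.02-fold lower. Adgre4, an adhesion receptor, had 65, 102 and 45 reads in sham and 0 in all NTY libraries, at least 65.4-fold lower. Sele, the endothelial adhesion molecule E-selectin, Col14a1, a collagen, and Kera, a proteoglycan of the cornea, had 20 to 69 reads in each sham library and 0 in all NTY libraries. These 3 genes are best known from other tissues.

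Nuclear proteins, enzymes and non-coding transcripts were among the 29 as well. Top3a, a topoisomerase that unlinks DNA strands, had 46, 73 and 70 reads in sham and 0, 0 and 1 in NTY. Tead1, the transcription factor at the end of the Hippo pathway, had 70, 23 and 39 reads in sham and 0 in all NTY libraries. Abhd12, a lipase of lysophosphatidylserine, had 71, 37 and 44 reads in sham and 0 in all NTY libraries. The non-coding transcript Gm10790 had 65, 96 and 46 reads in sham and 0 in all NTY libraries, at least 63.9-fold lower. The 11 calls not described singly were D3Ertd751e, Nyap2, Gm14812, C2cd2, Naaa, Ccdc65, Pld3, Gorab, Serpinb9, Perp and Gm29502, with 25 to 92 reads in each sham library and 0 or 1 in each NTY library.

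Serinc4 and Ell3 cannot be counted as separate genes. They share 1436 exonic bases on the same strand of chromosome 2, and Serinc4 had 67, 143 and 66 reads in sham and 1, 2 and 0 in NTY where Ell3 had 26, 114 and 43 and 1, 1 and 0. Serinc4 also shares 2296 and 1576 bases with Serf2 and Hypk on the opposite strand, which had 16951 and 7883 reads over the 6 libraries and log2 fold changes of -0.01 and -0.04. Serinc4 encodes a serine incorporator and Ell3 an elongation factor. How reads in shared exons were counted is not given in the sources used here.

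**Figure D3:**
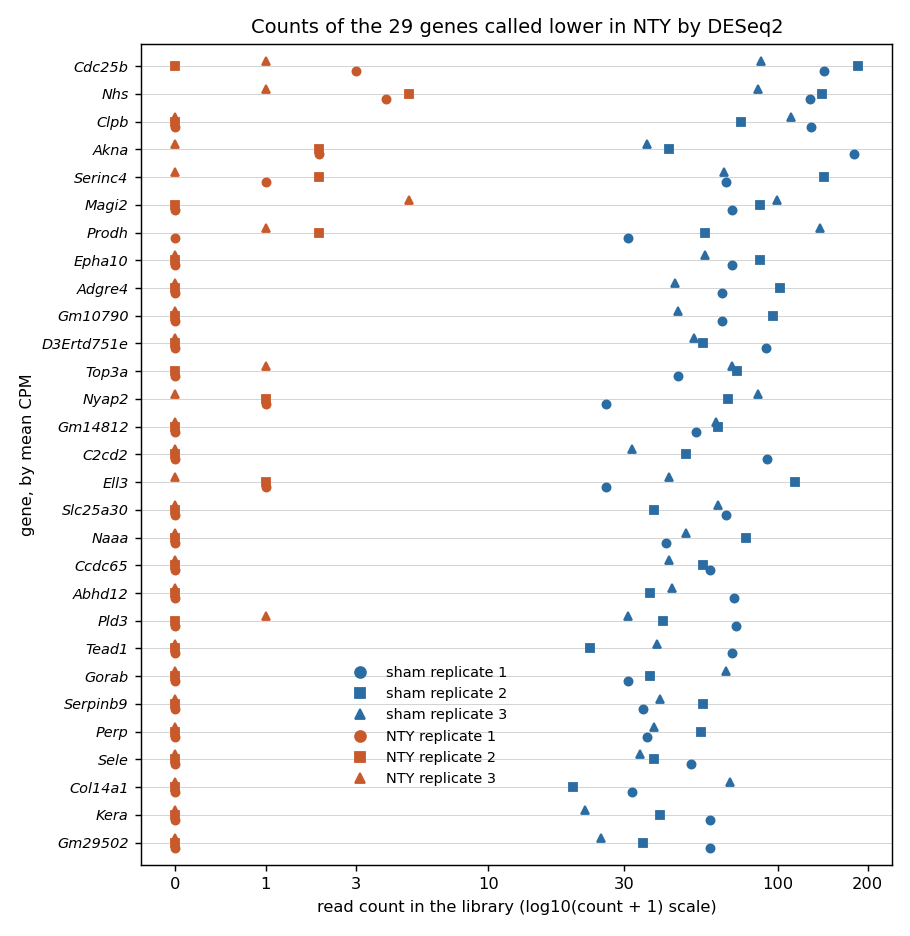
Read counts in each library (horizontal axis, log10(count + 1) scale) of the 29 genes that DESeq2 called lower in NTY, ordered by mean CPM. Sham libraries lie between 20 and 186 reads and NTY libraries between 0 and 5.

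Among genes with a symbol and a mean of at least 10 CPM, 243 had all NTY libraries below all sham libraries and 188 had all above. The tested genes numbered 5113 at 10 to 100 CPM and 1963 at 100 CPM or more. Over all genes tested the shares were 5.72% below and 2.63% above, and nothing is read from the counts. The 10 of each side with the smallest edgeR p are described next, and their separation and p are what chose them, so their values are a description. On the lower side they were Htra2, Shank2, St6galnac3, Enpp2, Fbxw11, Ist1, Vwde, Fam122b, Loxl3 and Cdh20, with log2 fold changes of -2.48 to -1.12. On the higher side they were Arhgap32, Mafk, Mapk9, Katnal1, Vcp, Fam168a, Serpinb3a, Col6a6, Upf1 and Zfp40, with log2 fold changes of 0.85 to 2.61. Their edgeR adjusted p was 0.877 to 0.9998 after Benjamini-Hochberg adjustment.

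Htra2 (chromosome 6, 83051266 to 83055273, GRCm38), a protease of the mitochondrial intermembrane space, stood at 34.9, 49.03 and 53.5 CPM in sham and at 12.8, 8.99 and 21.1 CPM in NTY. Its log2 fold change was -1.68 ± 0.47. Loxl3 (chromosome 6, 83034173 to 83052562), a lysyl oxidase of the extracellular matrix, stood at 15.1, 25.7 and 28.99 CPM in sham and at 6.38, 8.49 and 9.01 CPM in NTY. The genes lie on opposite strands and share 535 exonic bases, and Smart-seq II does not mark strand, so reads there could belong to either and their difference may be that of a single gene.

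Fbxw11, a substrate receptor of the SCF ubiquitin ligase, stood at 54.6, 46.2 and 56.7 CPM in sham and at 24.2, 19.1 and 28.95 CPM in NTY, a log2 fold change of -1.12 ± 0.37. Ist1, a subunit of the ESCRT machinery that severs membranes, stood at 43.95, 13.4 and 22.3 CPM in sham and at 3.88, 1.299 and 9.14 CPM in NTY, a log2 fold change of -2.48 ± 0.81 that was -3.36 without NTY replicate 3. Enpp2, the enzyme autotaxin that makes lysophosphatidic acid, stood at 30.9, 28.5 and 42.3 CPM in sham and at 14.1, 3.996 and 12.1 CPM in NTY. The spread of Ist1 and Enpp2 was wide within groups, whereas the libraries of Fbxw11 lay close together on each side.

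On the higher side, Mafk (chromosome 5, 139791513 to 139802653, GRCm38) encodes a small Maf protein that pairs with NRF2 or BACH1 on antioxidant response elements. It stood at 6.51, 3.06 and 1.42 CPM in sham and at 14.6, 19.1 and 33.3 CPM in NTY. Its log2 fold change was 2.61 ± 0.74 (3.295 without sham replicate 1), with an unadjusted edgeR p of 0.00669 and a Benjamini-Hochberg adjusted p of 0.877. Mafk shares 169 exonic bases with Tmem184a on the opposite strand, which had 116 reads over the 6 libraries against 681 for Mafk and a log2 fold change of 1.73 in the same direction, so that reads there could belong to either gene.

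Arhgap32, a GTPase-activating protein, stood at 3.31, 7.04 and 3.501 CPM in sham and at 18.8, 12.2 and 47.6 CPM in NTY, a log2 fold change of 2.50 ± 0.70 that was 1.75 without NTY replicate 3 and 1.37 on log2(TPM + 1). That of Zfp40 was 2.26, and 3.42 without sham replicate 2. Mapk9, the stress kinase JNK2, stood at 9.36, 12.9 and 11.6 CPM in sham and at 24.97, 41.5 and 25.6 CPM in NTY, a log2 fold change of 1.44 ± 0.47. Katnal1, a microtubule-severing enzyme, stood at 34.9, 35.2 and 29.2 CPM in sham and at 71.8, 50.1 and 85.1 CPM in NTY, a log2 fold change of 1.06 ± 0.36. Vcp, the ATPase that extracts ubiquitinated proteins for degradation, stood at 27.1, 28.1 and 22.8 CPM in sham and at 33.97, 68.2 and 80.04 CPM in NTY, with NTY replicate 1 the closest to sham. Katnal1, Vcp and Upf1 share 642, 352 and 68 exonic bases with the less counted genes Gm42791, 1700022I11Rik and Cers1, whose log2 fold changes were 1.57, 1.299 and 0.92, in the same direction.

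**Figure D4:**
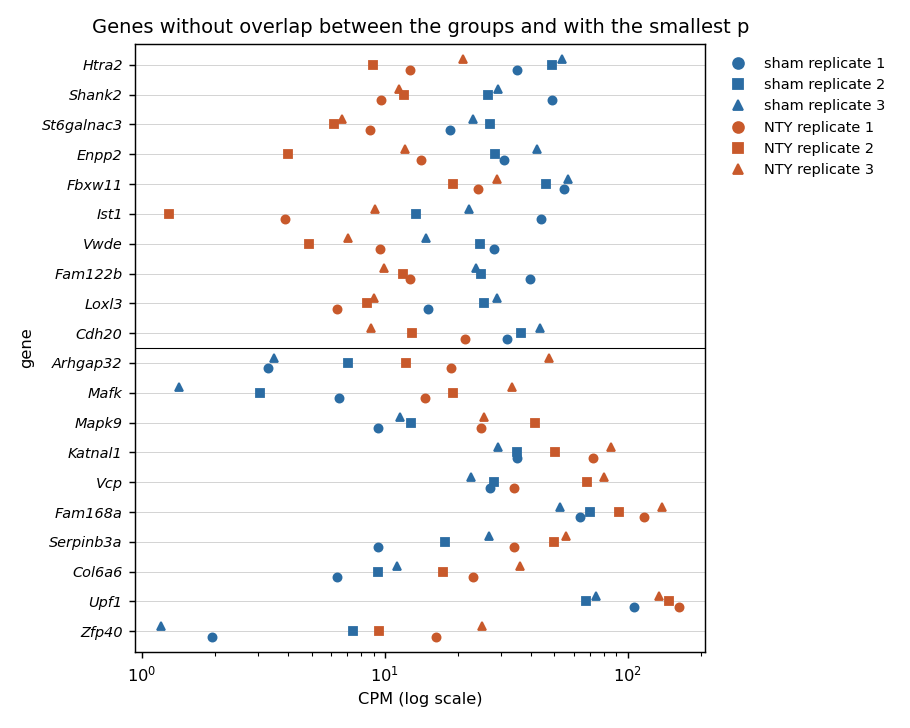
CPM in each library (horizontal axis, log scale) of the 10 genes per direction with the smallest edgeR p among genes of at least 10 CPM whose groups do not overlap. The genes above the line are lower in NTY and those under it higher, and the separation itself was the criterion of choice.

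The functions of the oocyte were then followed through 23 gene lists with 319 genes, of which 288 were tested. By edgeR 0 of the 288 passed the Benjamini-Hochberg threshold, and the adjusted p was 0.877 for Cdc25b and Mafk, 0.903 for Cd81 and 0.9998 for the others. At an unadjusted p under 0.05 there were 3 lower genes (Cdc25b, Fbxo5 and Cd81) and 2 higher genes (Mafk and Bach1). DESeq2 called Cdc25b. With so few NTY reads, Cdc25b and Cd81 passed the filter on low counts through the sham group alone. Ddx6, Tbpl2, Trpm7, Atm and Ndufs1, described below, each had at least 1 NTY library under the minimum of that filter. They too passed it through the sham group alone. Nothing is read from the p or the separation of any of these genes, which are among those lower without overlap. All NTY libraries lay below all sham libraries in 10 of the 288 (3.47%, beside 5.72% of all genes tested) and above them in 8 (2.78%, beside 2.63%). Counts in single lists are given as a description beside these shares, and nothing particular to a list is read from them. The median log2 fold change of a list ran from -0.24 to 0.34, beside 0.00 for all genes tested.

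The arrest at metaphase II is held by cyclin B with CDK1 and by the Mos kinase pathway, and released when the anaphase-promoting complex is freed of its inhibitor EMI2. Ccnb1, the main cyclin B, stood at 1555, 1578 and 1599 CPM in sham and at 1236, 1033 and 2051 CPM in NTY. Mos stood at 689, 215 and 621 CPM in sham and at 496, 695 and 327 CPM in NTY, and Fbxo43, which encodes EMI2, at 524, 423 and 427 and 391, 391 and 732. All 3 overlapped between the groups, with log2 fold changes of -0.13, -0.01 and 0.14. Of the 21 genes of this list 10 had negative and 11 positive values.

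Besides Cdc25b, from which nothing is read, Fbxo5 (chromosome 10, 5799160 to 5805600) had an unadjusted edgeR p under 0.05. It encodes the related inhibitor EMI1. It stood at 103, 80.9 and 55.1 CPM in sham and at 33.6, 47.8 and 37.8 CPM in NTY. No NTY library reached the lowest sham library, and the log2 fold change was -1.001 ± 0.36 (SE). The levels of the other CDC25 phosphatases are given as a description. Cdc25a stood at 49.9, 60.9 and 52.8 CPM in sham and at 75.6, 60.9 and 57.9 CPM in NTY, and Cdc25c was low and variable at 0, 0.463 and 1.42 and 7.98, 3.696 and 0 CPM.

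Chromosome segregation depends on the spindle checkpoint, on cohesin and on motor proteins. Of the 15 checkpoint and Aurora kinase genes 13 had positive values, with a median log2 fold change of 0.15. Mad1l1, which anchors the checkpoint at kinetochores, stood at 30.7, 51.8 and 39.4 CPM in sham and at 78.1, 53.7 and 55.5 CPM in NTY, without overlap. Bub1b, the checkpoint kinase BUBR1, stood at 1259.7, 1280.0 and 1236 CPM in sham and at 1409, 1041 and 2934 CPM in NTY. Its NTY replicate 3 was the highest, replicate 1 was also above every sham library and replicate 2 was under every sham library. Stag2, a cohesin subunit, stood at 32.1, 36.5 and 38.3 CPM in sham and at 39.2, 39.8 and 133 CPM in NTY, again highest in NTY replicate 3. Rec8, the meiotic cohesin subunit, had 0 reads in all 6 libraries. Pds5b, which regulates cohesin on chromosomes, lay above sham in all NTY libraries, at 6.96, 14.00 and 13.6 CPM in sham and 27.1, 16.6 and 15.7 CPM in NTY. Of 13 tested motor and microtubule genes 0 were without overlap, and of 10 actin genes 1 was, namely Actb, the cytoplasmic beta actin, at 28.5, 26.9 and 25.8 CPM in sham and 25.5, 23.2 and 20.8 CPM in NTY.

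Messages for the egg coat and growth factors overlapped between the groups. Gdf9 stood at 4875, 5014 and 5508 CPM in sham and at 4389, 5528 and 4224 CPM in NTY, and Bmp15, its partner, at 539, 499 and 606 and 299.73, 579.88 and 686. Zp3, a glycoprotein of the zona pellucida, stood at 209, 103 and 236 CPM in sham and at 185, 229.85 and 90.7 CPM in NTY. Of these 9 genes 0 were without overlap. In the fertilisation list Cd81, a tetraspanin that helps sperm fusion, had 29, 11 and 30 reads in sham and 0, 1 and 0 in NTY, while Cd9, the tetraspanin that is essential for it, stood at 9.25, 15.2 and 28.7 and 27.02, 54.1 and 3.86 CPM. Trpm7, a channel for calcium and magnesium, stood at 11.6, 12.9 and 12.6 CPM in sham and at 1.25, 0 and 6.82 CPM in NTY. Like Cd81, Trpm7 passed the filter on low counts through the sham group alone, so its separation is a description.

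Genes that store and clear maternal messages went both ways, with 6 negative and 11 positive log2 fold changes among 17 tested, from -1.38 for Ddx6 to 0.86 for Zar1l and a median of 0.08. Btg4, the adaptor that brings the CCR4-NOT deadenylase to maternal mRNA, stood at 6853, 5741 and 6589 CPM in sham and at 8511, 7408 and 7097 CPM in NTY. Its NTY libraries were all above sham, by a log2 fold change of 0.26 ± 0.22. Ddx6, a helicase of translational repression, lay below sham in all NTY libraries at 7.42, 9.36 and 9.63 CPM in sham and 3.88, 5.19 and 1.03 CPM in NTY. Ddx6 passed the filter on low counts through the sham group alone, so its separation is a description. Zar1, a keeper of the maternal store, varied within both groups, at 1218, 128 and 365 CPM in sham and 1849, 253 and 94.7 CPM in NTY. Replicate 1 was the highest on each side.

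The maternal effect list held 14 genes, and 0 of them were without overlap, beside 5.72% lower and 2.63% higher of all genes tested. Nlrp5, a core member of the subcortical maternal complex, stood at 146, 587 and 442 CPM in sham and at 241, 470.50 and 404 CPM in NTY. Trim28, a guard of imprints in the early embryo, stood at 141, 169 and 222 CPM in sham and at 408, 281 and 113 CPM in NTY, where replicate 3 was under every sham library and the others above. Among oocyte transcription factors Tbpl2, which replaces TBP in growing oocytes, stood at 24.7, 15.2 and 21.6 CPM in sham and at 9.35, 0 and 10.6 CPM in NTY, with NTY replicate 2 at 0. Obox5, a homeobox gene with close copies that could share reads, stood at 2482, 2271 and 2492 CPM in sham and at 3239, 2717 and 2515 CPM in NTY, without overlap.

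The growth protocol field of the labels refers to an NRF study without spelling out the letters, and the list of NRF2 and its regulators and that of its targets were followed for that reason. NRF2, encoded by Nfe2l2, activates antioxidant genes when released from KEAP1, and BACH1 represses the same elements. Bach1 stood at 6.74, 7.51 and 4.27 CPM in sham and at 26.3, 12.5 and 15.8 CPM in NTY, with every NTY library above sham, a log2 fold change of 1.56 ± 0.61 and an unadjusted edgeR p of 0.0307. Bach1 and Mafk were the 2 of 8 tested genes of this list that were higher without overlap, beside 2.63% of all genes tested, a count too small to read as a result about the list. Nfe2l2 itself stood at 48.1, 26.6 and 16.1 CPM in sham and at 36.8, 30.1 and 40.9 CPM in NTY, and Keap1 at 9.704, 6.03 and 3.501 and 7.98, 3.496 and 14.3.

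The targets of NRF2 did not move together. Of the 13 tested, 7 had negative and 6 positive values, with a median log2 fold change of -0.12, and 0 were without overlap. Nqo1, a quinone reductase, stood at 19.2, 24.1 and 26.4 CPM in sham and at 17.3, 21.4 and 20.5 CPM in NTY. Slc7a11, the cystine transporter, stood at 108, 95.4 and 153 CPM in sham and at 73.1, 218 and 191 CPM in NTY. Hmox1 and Srxn1, which are strong targets in other cells, had 0 reads in all 6 libraries. Among other antioxidant enzymes Sod1 stood at 43.95, 79.1 and 91.5 CPM in sham and at 89.3, 164 and 47.4 CPM in NTY, and Prdx2 at 157, 238 and 247 and 423, 274 and 148, both with overlap.

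Mitochondrial transcripts varied by library more than by group. Their share of all reads was 8.15%, 1.73% and 2.06% in sham replicates 1 to 3 and 3.04%, 3.19% and 6.49% in NTY replicates 1 to 3. Sham replicate 1 and NTY replicate 3 stood apart from the rest of their groups. The mitochondrially encoded list had the highest median of these 23 lists, at 0.34, and 0 of its 13 genes were without overlap. mt-Cytb stood at 41926, 7452 and 10309 CPM in sham and at 14619, 12486 and 30021 CPM in NTY, a log2 fold change of -0.06 that became 1.09 without sham replicate 1 and -0.55 without NTY replicate 3. Of the 15 tested nuclear genes of the respiratory chain 10 had negative values, among them Ndufs1 at 8.56, 13.6 and 8.64 CPM in sham and 7.18, 0.0999 and 8.24 CPM in NTY.

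Lists of fuel use, protein turnover and stress followed. Mpc1, a subunit of the mitochondrial pyruvate carrier on which the oocyte depends for fuel, stood at 93.4, 100.20 and 98.7 CPM in sham and at 88.8, 74.3 and 63.4 CPM in NTY, lower in all NTY libraries. Atm, the kinase of double-strand breaks, stood at 7.88, 4.91 and 2.52 CPM in sham and at 1.71, 0 and 0 CPM in NTY, where 2 libraries had no read. Heat shock proteins had the lowest median of these 23 lists, at -0.24, although Hsp90aa1, the most counted of them, stood at 2436, 1526 and 1577 CPM in sham and at 2051, 2532 and 3645 CPM in NTY. Of the 12 tested ribosomal protein genes and the 20 proteasome genes 0 were without overlap, with medians of 0.18 in each list. The unfolded protein response had a median of -0.20 with 0 of 9 genes without overlap, and Hspa5, the chaperone BiP, stood at 19.2, 43.4 and 22.1 CPM in sham and at 15.05, 23.97 and 19.2 CPM in NTY. The medians for DNA methylation and chromatin and for the small RNA pathway were 0.15 and 0.19, also with 0 genes without overlap.

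**Figure D5:**
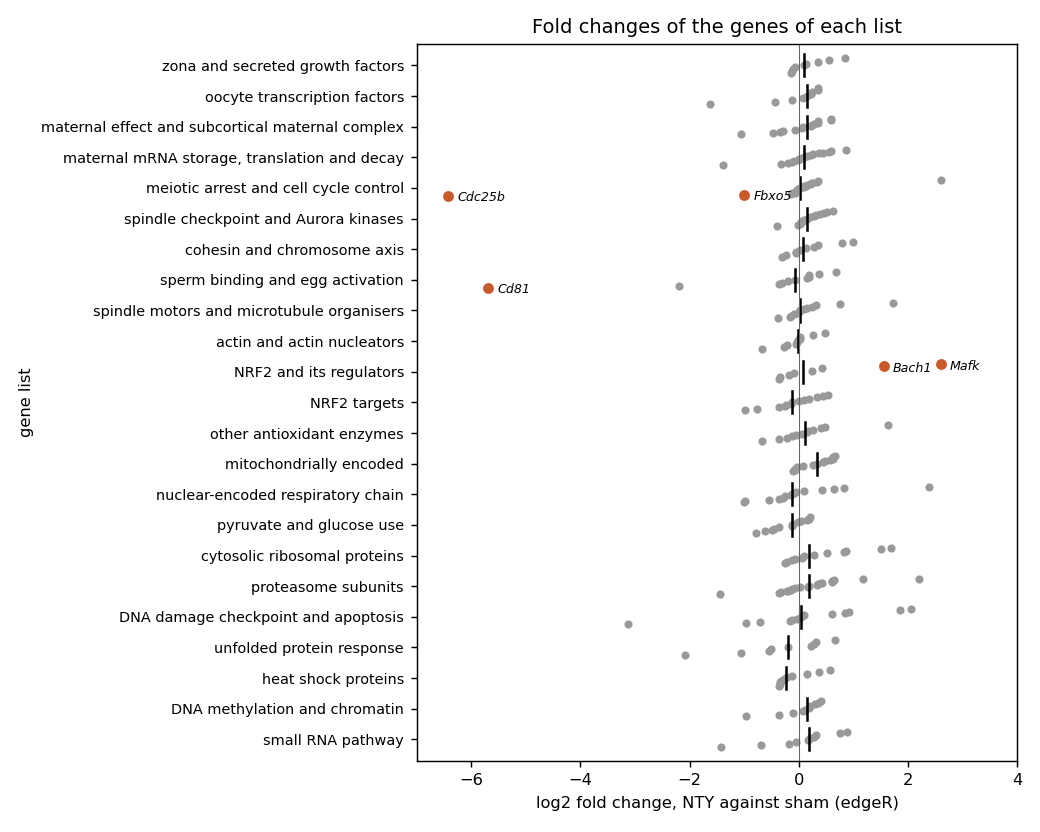
Log2 fold change of NTY against sham (horizontal axis, edgeR) for the tested genes of each of the 23 lists (points), with the list median (line). Orange points are genes with an unadjusted p under 0.05, which are Cdc25b, Fbxo5, Cd81, Bach1 and Mafk, and the medians lie between -0.24 and 0.34.

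Markers of other cells that could adhere to collected oocytes were near 0, or overlapped between the groups, in most lists. Of 15 granulosa and cumulus markers Foxl2, Amhr2, Fst and Wt1 had 0 reads in all 6 libraries, and the summed level of the list was 108 to 180.3 CPM in sham and 107 to 176 CPM in NTY. Most of that sum was Cyp19a1, Esr2 and Nr5a2. Fshr, the receptor for FSH, had 11, 47 and 20 reads in sham and 3, 0 and 0 in NTY. With so few NTY reads Fshr passed the filter on low counts through the sham group alone, so nothing is read from it. Of the 7 tested genes of this list 3 had negative and 4 positive log2 fold changes, from -4.36 for Fshr to 2.71 for Inha. The 10 cumulus expansion markers summed to 0 to 5.02 CPM in sham and 0 to 1.93 CPM in NTY, with Ptx3 and Tnfaip6 at 0 in every library. The 6 stroma markers summed to 0.328 to 2.85 CPM in sham and to 0 in all NTY libraries, with Dcn, the matrix proteoglycan decorin, at 2.85, 1.67 and 0.328 CPM in sham.

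For blood and immune cells Ptprc, Lyz2, Tyrobp and the beta globins were at 0 throughout, and the 8 markers summed to 1.42 to 5.10 CPM in sham and 0 to 6.19 CPM in NTY. The endothelial list was led by Pecam1, at 116, 125 and 119 CPM in sham and 135, 102 and 99.99 CPM in NTY, with Cdh5 at 0 in all 6 libraries. Theca and oviduct markers summed to at most 7.23 and 16.3 CPM in sham and at most 12.7 and 19.5 CPM in NTY, with Cyp17a1, Insl3 and Pax8 at 0. Of 4 genes of the early embryo Zscan4d was the most counted, and the list summed to 1.60 to 2.08 CPM in sham and 0.386 to 0.899 CPM in NTY. The stroma and early embryo sums did not overlap between the groups, and their part in the lower number of rare messages was not tested. Xist and Neat1, which are retained in the nucleus of somatic cells, had 0 reads in all 6 libraries. Of this list of 5 RNAs retained in the nucleus, Malat1, Kcnq1ot1 and Meg3 had reads, with log2 fold changes of -1.02, 0.28 and -0.40. The list summed to 9.30 to 23.5 CPM in sham and 5.99 to 16.2 CPM in NTY, with overlap.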

How the data were processed

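Groups and replicate numbers of the 6 MII libraries were read from the labels. The authors deposited counts of reads per gene, whole numbers without normalization, for 53715 genes, and TPM values for 28252 of them. The submitters' processing notes name mm10, Trim Galore 0.4.1, TopHat2 and featureCounts. How strand, overlapping genes and reads with several matches were handled is not given in the sources used here. Symbols came from the deposited TPM table (28242 genes) and coordinates from the GENCODE annotation M21 (GRCm38), in which 53620 identifiers were found.

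NTY was tested against sham by quasi-likelihood F tests (edgeR 4.0.16, R 4.3.3) on the deposited counts of these 6 libraries alone, with robust estimation, TMM scaling, the filterByExpr filter by group and Benjamini-Hochberg adjustment over 12209 genes at 0.05. Deposited TPM values were used for levels between genes and, with a pseudocount of 1, for limma on genes at 1 TPM or more in at least 3 libraries. CPM were computed from the counts with TMM-scaled library sizes. Numbers of genes were compared by exact two-sided permutation (scipy 1.17.1). Ratios of summed counts carry exact binomial (Clopper-Pearson) 95% intervals, and a group at 0 was set to a floor of 3 counts over the group.

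Alternatives were RLE scaling, plain totals, DESeq2 1.42.0 without and with its Cook filter, limma 3.58.1 with voom and quality weights, other count filters, a fold change minimum, a replicate block and leaving out each library. DESeq2 without each library was added after the data were seen. The fits were also run on simulated data, and no result of that run is given or used here.

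Named were the genes of 32 lists (383 genes, 306 tested), up to 10 genes per direction with the smallest edgeR p among non-overlapping genes that averaged 10 CPM or more, up to 10 with the highest mean CPM among the DESeq2 calls, and the 15 with the highest mean TPM in sham. The members and lists were chosen with earlier results of these data known. Other genes, among them the remaining DESeq2 calls, were named after their values were seen.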

Additional observations from a re-analysis of the deposited data

How the results depend on the processing

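By edgeR and limma the number of genes past the adjusted threshold was 0 under every alternative run, namely RLE scaling, plain totals, voom with quality weights, any count, at least 10 counts in each library, log2(TPM + 1), a log2 fold change of at least 1 and leaving out each library (0 to 0). It was 29 by DESeq2 and 29 by DESeq2 with its Cook filter. Added after the data were seen, it was 0, 1 and 2 by DESeq2 without sham replicate 1, 2 and 3. Without NTY replicate 1, 2 and 3 it was 246, 132 and 184 by DESeq2, of which 228, 125 and 175 were lower in NTY. Genes at an unadjusted p under 0.05 numbered 280 in edgeR, 393 by DESeq2, 502 by voom, 512 by log2(TPM + 1), 1154 of 20896 with any count and 151 of 8307 (62 lower, against 228 of 280) with at least 10 counts in each library. Without NTY replicate 1, 2 or 3 they numbered 1068, 740 or 968, and without a sham library 285 to 355. The cause was not tested. The NTY minus sham difference in genes with a read was -3502 and ran from -4085 to -2687 without each library, and it was -1473 for genes with at least 10 reads. With a replicate block edgeR called 0 genes, 230 at an unadjusted p under 0.05, and the difference in genes with a read of -3502 had an exact sign-flip p of 0.25, the smallest that 3 pairs allow. The deviations of same-numbered libraries correlated at 0.083, -0.0285 and -0.0798, and whether equal numbers share an animal or a day is not given in the sources used here, so that they were not treated as pairs. Of 334 named or listed genes 9 changed sign with RLE scaling and 74 without NTY replicate 3. A single read was counted as detection, and a gene at 0 reads in a library may be present under 0.301 to 0.347 CPM, the level of 3 reads.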
